A study of Homo sapiens with 18 samples.

Results

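The effect of sodium selenite on RNA levels was measured in the input libraries of HEK293T cells that overexpressed Flag-SBP2. The comparison set 3 inputs with Flag-SBP2 and selenite against 3 inputs with Flag-SBP2 alone, 6 of the 18 libraries of an RNA immunoprecipitation (RIP-seq) series. HEK293T is a readily transfected human embryonic kidney line, although the growth protocol names HEK293. Cells with selenite were transiently transfected with a Flag-SBP2 plasmid and received 100 nM sodium selenite 4 h later, and cells without selenite received the plasmid alone. A further 3 inputs came from cells with the Flag vector and no added selenite. They entered the same fit to share its estimate of the spread. All cells were collected at 48 h and grew in medium with fetal bovine serum. The input was taken from the cleared NP40 lysate before the anti-Flag beads were added, so it represents RNA released by that detergent and then selected for poly(A). No library analysed here came from cells given selenite without Flag-SBP2, so an effect of selenite alone cannot be told apart from one that needs overexpressed SBP2. The series design calls the replicates biological, but the labels do not say whether they were transfected on separate days. The p-values below measure the spread between these samples.

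Selenite is an inorganic source of selenium, which cells reduce to selenide and use to make selenocysteine on its own tRNA. SBP2 binds the SECIS element, a stem-loop in the 3′ untranslated region of selenoprotein mRNAs, and helps the ribosome to read a UGA codon as selenocysteine. When selenium is scarce, that codon can be read as a stop, and some selenoprotein mRNAs are then lost to nonsense-mediated decay.

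Genes are named by the Ensembl IDs of the deposited table. The file does not pair them with symbols, and 0 of 59792 genes in the reference gene table carry an Ensembl ID. The selenoprotein genes, the transfected gene and the marker genes of the cell line were therefore not checked by name, no ID is given a function, and at most 2 IDs in each direction are named.

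The 6 inputs held 15.6 to 22.2 M counts (M, counts divided by 1e+06), with 18.1 ± 1.32 M with selenite and 18.3 ± 3.44 M without (SD, n = 3 each). Between 23337 and 24596 IDs had a count in each of them. The 10 most abundant IDs took 4.57 to 5.16% of each library. Of 58676 IDs, 16616 passed the low-count filter of edgeR and were tested. Any 2 of these 6 libraries correlated at 0.986 to 0.993 in log2 CPM over tested IDs, which are not independent. CPM is counts scaled to 1e+06 per library after TMM scaling.

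ENSG00000178980 rose with selenite in these lysates. Its level was 147, 132 and 148 CPM in the selenite inputs, against 76.2, 52.5 and 60.1 CPM in the inputs without selenite. Behind these values stood 2733, 2283 and 2833 reads with selenite and 1160, 906 and 1344 without. All 3 selenite inputs lay well above all 3 without, and the groups did not overlap. The means were 142 ± 9.15 CPM with selenite and 62.9 ± 12.1 CPM without (SD, n = 3). The change was 1.18 on the log2 scale (SE 0.125, 95% interval 0.91 to 1.44, 2.26-fold, edgeR adjusted p = 0.00216). In bulk lysates, more RNA per cell and more cells that hold the RNA cannot be told apart.

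That ID was the only one to pass among 16616 (0.00602% of IDs tested), and 0 IDs passed in the other direction. Before adjustment 251 IDs had an edgeR p under 0.05, where evenly spread p-values would give 830.8. DESeq2 called 3 higher and 0 lower, and limma voom called 1 higher and 0 lower. ENSG00000178980 passed under each of the 30 other settings tried, with log2 changes of 1.06 to 1.34. Leaving out any 1 input, Flag vector inputs included, gave an edgeR adjusted p of at most 0.029.

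The levels in Flag vector inputs place this change. ENSG00000178980 had 67.3, 57.3 and 60.3 CPM there, within the range of the SBP2 inputs without selenite. SBP2 inputs without selenite against Flag vector inputs gave a log2 change of 0.03 (edgeR adjusted p = 0.928), and SBP2 inputs with selenite against Flag vector inputs gave 1.21 (edgeR adjusted p = 0.000243). These contrasts share libraries with the main one and with each other, so they are no separate evidence.

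The RIP libraries of the same lysates gave a second readout that was not used to choose the comparison. ENSG00000178980 reached 955, 867 and 1038 CPM in SBP2 RIP with selenite, against 422, 447 and 409 CPM in SBP2 RIP without it. Flag vector RIP held 12.7, 13.4 and 12.3 CPM. The change with selenite between the SBP2 RIP groups was 1.16 on the log2 scale (SE 0.102, edgeR adjusted p = 5.84e-07). It was again the only ID called, of 17678 tested over all 18 libraries (0.00566%), with 0 lower. The RIP change minus the input change was -0.02 (95% interval -0.32 to 0.28, edgeR adjusted p = 0.995). The RIP level mixes abundance with recovery, and RIP CPM was scaled over all 18 libraries, apart from the input CPM.

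**Figure D1:**
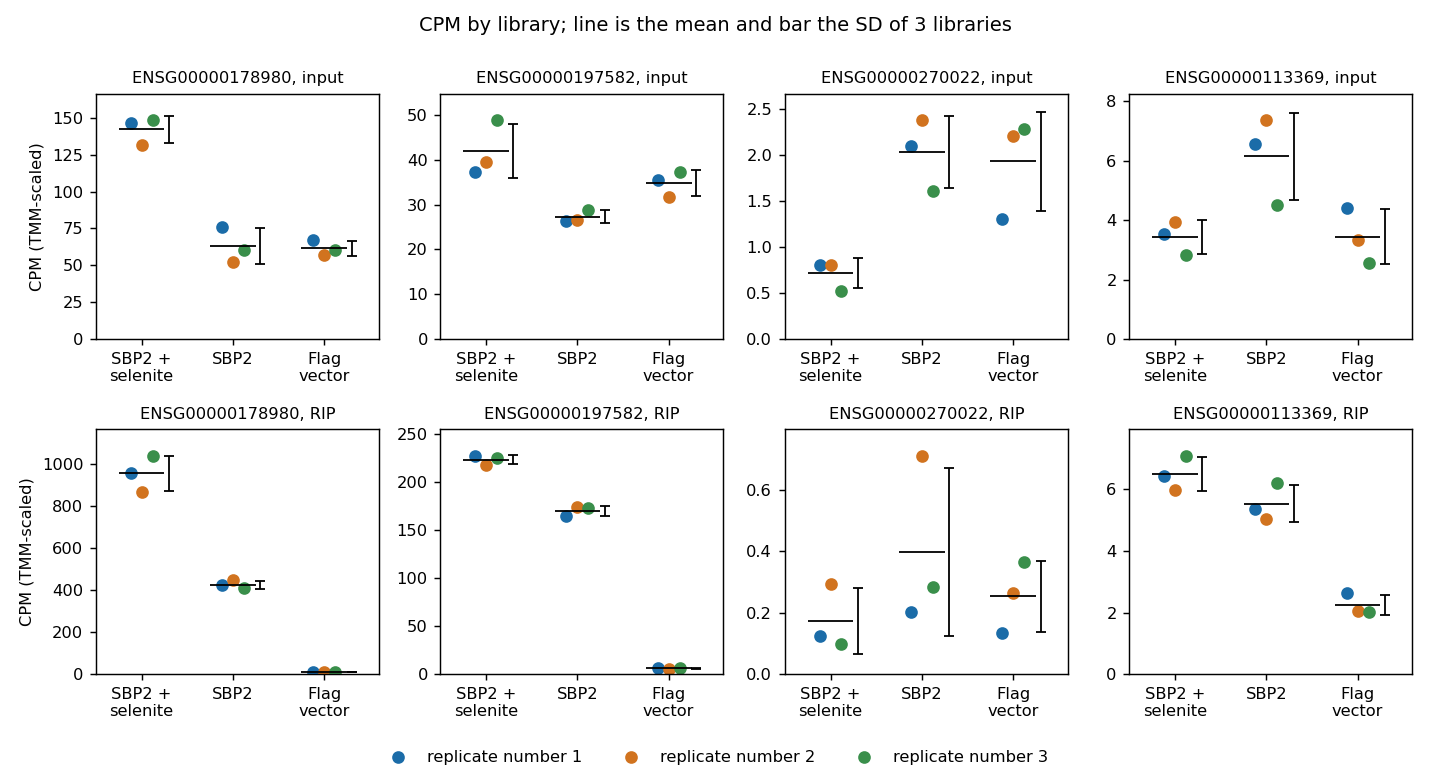
CPM of the 4 named IDs by library, inputs in the upper row and RIP libraries in the lower, each axis starting at 0; points are libraries coloured by replicate number, the line is the mean and the bar the SD of 3 libraries. ENSG00000178980 lies at 132 to 148 CPM in the selenite inputs and 52.5 to 76.2 CPM in the SBP2 inputs without selenite, and the ID with the lowest level, ENSG00000270022, stays under 3 CPM in every library.

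Inputs that share a replicate number resembled each other. Deviations from the group mean correlated at 0.149 to 0.259 between selenite and non-selenite SBP2 inputs of the same number, against -0.252 to -0.00966 for different numbers. Over the 13438 IDs with a mean log2 CPM of at least 1, the replicate number carried 56.6% of the sum of squares among the 6 inputs and the selenite group 19.1%, where their degrees of freedom make up 40% and 20%. On the first principal component, with 47.1% of the variance, selenite inputs 1, 2 and 3 lay at -8.73, 3.05 and 25.0, and SBP2 inputs 1, 2 and 3 without selenite at -13.4, -11.5 and 5.61. Within each number the selenite input lay further to the positive side, and selenite input 3 lay furthest from the rest. Without that library the test without a block again called 1 ID higher and 0 lower. What the number stands for is not given in the labels.

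**Figure D2:**
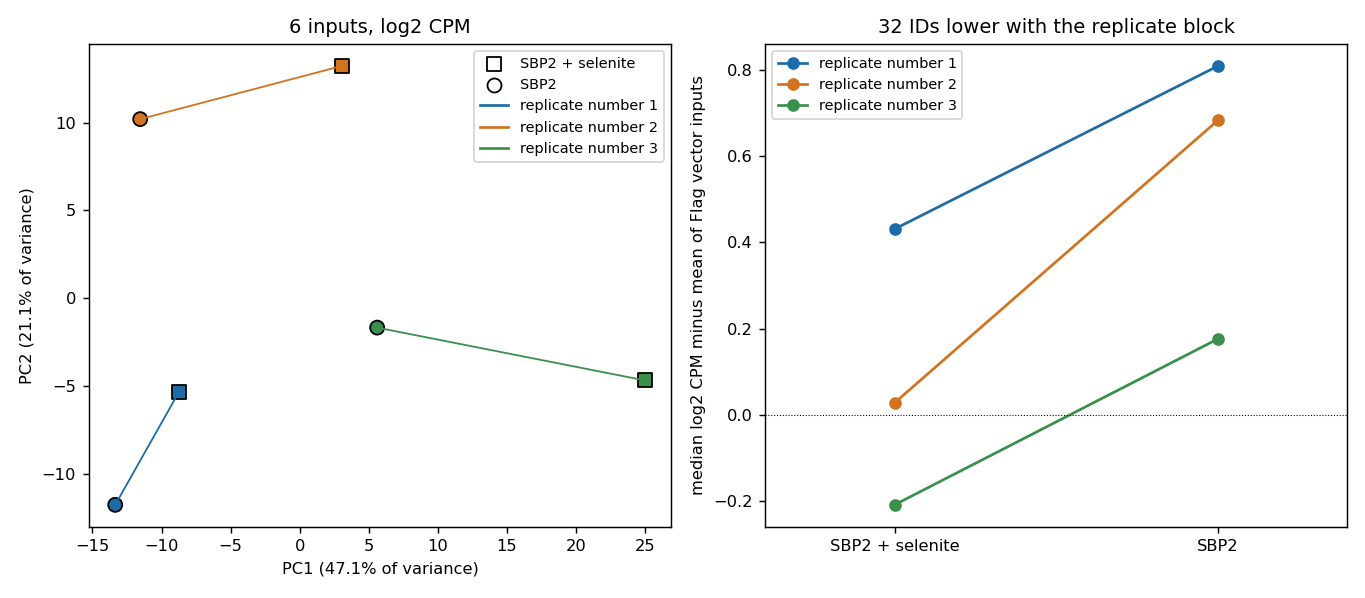
Left, the first and second principal components of the 6 inputs (log2 CPM of 13438 IDs), with lines joining inputs of the same replicate number; right, the median level of the 32 IDs lower with the replicate block in each input, as log2 CPM minus the mean of the Flag vector inputs. Inputs of each number hold an area of their own on the left, and on the right each line is lower with selenite although the groups overlap (0.43, 0.03 and -0.21 with selenite, 0.81, 0.68 and 0.18 without).

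With the replicate number as a block, the selenite change was read within each pair of inputs. The standard error of the typical ID fell to 0.103 on the log2 scale, against 0.145 without the block. Then 5 IDs rose (0.0301% of those tested) and 32 fell (0.193%), and 1679 IDs had an unadjusted p under 0.05. All 5 higher IDs had groups that did not overlap, beside 3.36% of all tested IDs with every selenite input above every other SBP2 input. Of the 32 lower IDs, 3 had such groups, beside 2.82% of tested IDs in that direction. Non-overlap comes from the same contrast as the calls and only describes them.

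ENSG00000178980 changed by 1.19 with the block (SE 0.0738, edgeR adjusted p = 5.45e-10), at 0.95, 1.33 and 1.30 in pairs 1, 2 and 3. ENSG00000197582 was next in size among the higher IDs. It had 37.4, 39.5 and 48.8 CPM with selenite, against 26.3, 26.6 and 28.9 CPM without. The lowest selenite input stood above the highest input without selenite. The means were 41.9 ± 6.08 and 27.3 ± 1.41 CPM (SD, n = 3), a log2 change of 0.62 with the block (SE 0.0829, 1.53-fold, edgeR adjusted p = 0.000717) and of 0.62 without it (SE 0.119, edgeR adjusted p = 0.639). It did not pass with the block once pair 3 was left out (edgeR adjusted p = 0.136). In Flag vector inputs it had 35.5, 31.7 and 37.2 CPM, above every SBP2 input without selenite and below every selenite input. In RIP it had 228, 218 and 225 CPM with selenite and 165, 174 and 173 CPM without, again without overlap, at a log2 change of 0.39 (edgeR adjusted p = 0.0961).

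The remaining 3 higher IDs changed by 0.60, 0.52 and 0.33 on the log2 scale with the block, or 1.51-fold, 1.43-fold and 1.26-fold (edgeR adjusted p = 1.35e-05, 0.00277 and 0.0274). With the block, SBP2 inputs without selenite against Flag vector inputs gave -0.25, -0.08 and -0.22 for these 3 IDs in the same order (edgeR adjusted p = 0.00807, 0.542 and 0.0227), and SBP2 inputs with selenite against Flag vector inputs gave 0.35, 0.44 and 0.11 (edgeR adjusted p = 0.00101, 0.000716 and 0.37). For ENSG00000197582 these values were -0.35 (edgeR adjusted p = 0.00597) and 0.27 (edgeR adjusted p = 0.0495). Both contrasts share libraries with the selenite contrast. All 5 were moderately to highly abundant, with a mean log2 CPM of 5.08 to 8.32. In RIP their changes with selenite ran from 0.24 to 1.16 on the log2 scale, and 1 of the 5 passed there. With DESeq2, limma voom or another scaling, each with the block, 5 IDs were higher and they were the same 5.

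Outside the inputs, 4 of the 5 higher IDs were strongly recovered with SBP2, and the remaining 1 less so. The ratio of SBP2 RIP to Flag vector RIP, both without selenite, sets no input library against another. The inputs still entered the filter, the scaling and the estimate of the spread, since that fit used 18 libraries. This ratio was 5.06 for ENSG00000178980 on the log2 scale, rank 10 of 17678, and 4.73 for ENSG00000197582, rank 15. The other 3 lay at 4.74, 4.33 and 2.42, at ranks 14, 20 and 283. An ID called lower with the block lay close to this last, at 2.33 and rank 320. The ID at 4.74 resembled ENSG00000197582 in its input change with the block (0.60 and 0.62) and its RIP change (0.41 and 0.39). Whether these 2 IDs share reads was not tested, so they may not be separate members of the counts here. The median ratio over all tested IDs was 0.02, and 0.639% of them reached 3, as did 4 of the 5 higher IDs. The converse did not hold. Of the IDs at a mean log2 CPM of at least 1, 20 had a ratio of at least 4. Under the block, 4 of these 20 were higher with selenite, beside 0.0301% of all tested IDs. The 20 had a median input change of -0.02 without the block and a lowest change of -0.28. Of them, 8 were above 0, beside 50.3% of all tested IDs. Of 41 IDs with a ratio from 3 to 4, 10 were above 0 in input, the median was -0.08, the range was -0.41 to 0.27, and 0 were called.

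**Figure D3:**
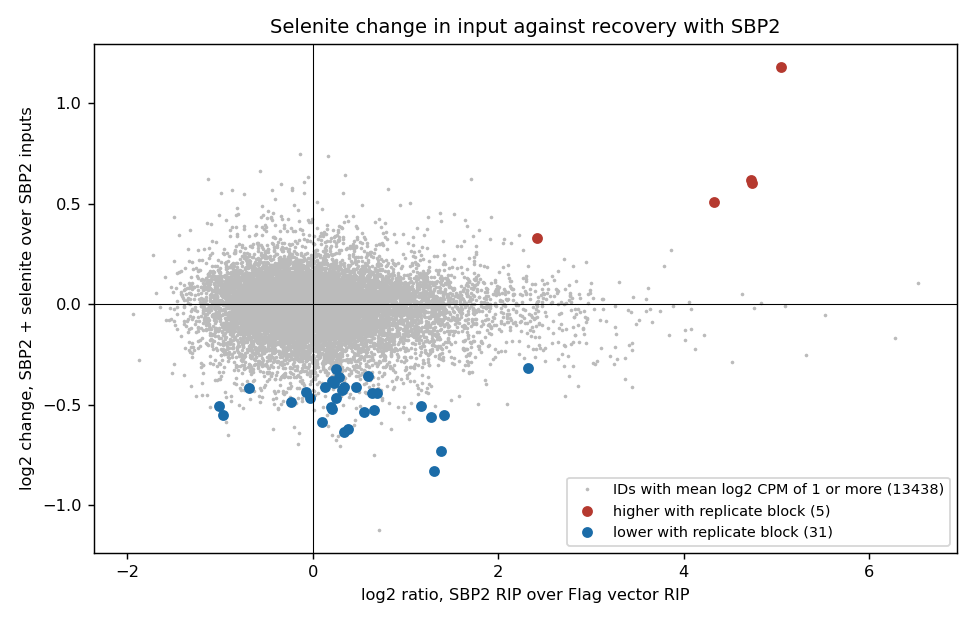
Log2 change of each ID with selenite in the inputs without a block (vertical axis) against its log2 ratio of SBP2 RIP to Flag vector RIP (horizontal axis), for 13438 IDs with a mean log2 CPM of at least 1. The 5 higher IDs, in red, lie at ratios of 2.42 to 5.06, whereas many IDs with equally high ratios stay near 0; of the 32 lower IDs, in blue, 1 was too rare to be drawn.

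The log2 changes of the 32 IDs called lower with the block ran from -1.49 to -0.32 with a median of -0.49, or 0.71-fold. By abundance, 9 of 625 IDs at 8 or above in mean log2 CPM were lower (1.44%), 12 of 2903 from 6 to 8 (0.413%) and 8 of 5158 from 4 to 6 (0.155%). In the rarer classes, 2 of 3354 from 2 to 4 were lower (0.0596%), 1 of 2871 from 0 to 2 (0.0348%) and 0 of 1705 below 0. The standard error shrank as abundance rose, to a median of 0.0601 in the most abundant class, against 0.129 in the class from 2 to 4. Relative to the mean of the Flag vector inputs, the median of the 32 IDs stood at 0.43, 0.03 and -0.21 in selenite inputs 1, 2 and 3 and at 0.81, 0.68 and 0.18 in SBP2 inputs 1, 2 and 3 without selenite. The groups overlapped, and within each number the selenite input was lower, with median differences of -0.38, -0.65 and -0.41 in pairs 1, 2 and 3. The median change of these IDs was 0.51 for SBP2 inputs without selenite against Flag vector inputs and 0.03 for SBP2 inputs with selenite against Flag vector inputs, on the log2 scale. The first of these shares its SBP2 inputs with the selenite contrast, which by itself ties the values of both contrasts together. In RIP the 32 IDs had a median change of -0.03 with selenite, 18 of 32 were below 0 beside 48.0% of all tested IDs, and 0 passed. Their ratio of SBP2 RIP to Flag vector RIP had a median of 0.32, with a highest value of 2.33.

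The number of lower calls depended on the Flag vector inputs, the low-count filter, single pairs, 1 of the scalings and the tool. Which IDs they were depended on the pairs, that scaling and the tool. With the block over the 6 SBP2 inputs alone, 8 IDs were higher and 167 lower. Without a low-count filter these counts were 13 and 249. Both sets held the same 5 higher and 32 lower IDs. With the block, leaving out pair 1 gave 8 higher and 152 lower IDs, leaving out pair 2 gave 3 and 5, and leaving out pair 3 gave 2 and 0. Scaling by library size alone gave 5 higher and 5 lower, a share higher of 50%, against 13.5% with TMM, while the median change of the 32 IDs, which were chosen on this contrast, was -0.47 there and -0.49 with TMM. DESeq2 size factors gave 47 lower IDs and upper-quartile factors 42, and each of these held the same 32. DESeq2 with the block gave 33 lower IDs, of which 16 were among the 32.

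ENSG00000270022 had the largest change of the IDs called lower with the block. It had 0.806, 0.808 and 0.524 CPM with selenite, from 15, 14 and 10 reads, against 2.10, 2.38 and 1.61 CPM without, from 32, 41 and 36 reads. The groups did not overlap, but the reads were few. Flag vector inputs held 1.31, 2.20 and 2.28 CPM. The log2 change was -1.49 with the block (SE 0.31, 95% interval -2.13 to -0.84, edgeR adjusted p = 0.0404), and without the block the same change did not pass (edgeR adjusted p = 0.9997). With the block it did not pass once any 1 pair was left out (edgeR adjusted p = 0.052 to 0.225). In RIP it had at most 19 reads in any library.

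Of the IDs called lower with the block, ENSG00000113369 had the next largest change. It had 3.54, 3.93 and 2.83 CPM with selenite, against 6.57, 7.36 and 4.52 CPM without, and again the groups did not overlap. Flag vector inputs held 4.41, 3.33 and 2.57 CPM, close to the selenite inputs. The log2 change was -0.83 with the block (SE 0.166, edgeR adjusted p = 0.0274) and -0.83 without it (SE 0.229, edgeR adjusted p = 0.9997). It did not pass with the block once any 1 pair was left out (edgeR adjusted p = 0.0706 to 0.222). In RIP its levels were 6.43, 5.98 and 7.09 CPM with selenite and 5.36, 5.05 and 6.20 CPM without, which overlapped, at a log2 change of 0.23 (edgeR adjusted p = 0.955).

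**Figure D4:**
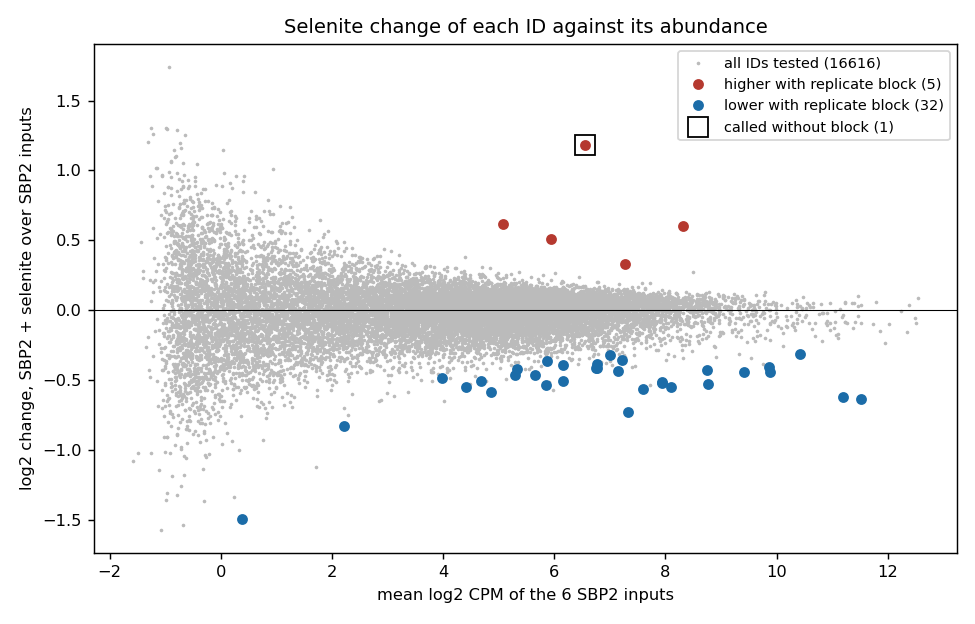
Log2 change of 16616 IDs with selenite in the inputs, without a block, against their mean log2 CPM over the 6 SBP2 inputs; red and blue points are the 5 IDs higher and the 32 lower with the replicate block, and the square marks the 1 ID also called without it. The cloud narrows as abundance rises, and ENSG00000178980 at 1.18 lies apart from it.

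Across the transcriptome the selenite change was narrow. The median log2 change over 16616 IDs was 0.00, 50.3% of IDs were above 0, and the SD was 0.21. Only 46 IDs differed by at least 1 on the log2 scale, and 2 of these had a mean log2 CPM of at least 1. For 14678 IDs (88.3%) the 95% interval of the change lay within a 2-fold change in either direction. That share was 99.3% of the 3354 IDs with a mean log2 CPM from 2 to 4 and 99.7% of the 5158 from 4 to 6, but 81.9% from 0 to 2 and 19.7% below 0. For most RNAs below 1 CPM the interval thus did not exclude a 2-fold change at this depth. Whether such a change would have been called there was not tested. These intervals are not adjusted for the number of IDs.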

How the data were processed

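Input and RIP libraries were made from lysates of transfected cells, with poly(A) RNA, per the labels. The authors deposited raw whole-number counts per gene for 18 libraries. The submitters' processing notes name Trim Galore 0.6.6, STAR 2.7.6a, featureCounts 2.0.1 and the build GRCh38 (hg38). Which annotation and strand setting were used, and how reads with several matches were treated, is not given in the sources used here. A gene's count may therefore hold reads of a paralog, a pseudogene, an overlapping gene or an antisense partner.

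Samples were grouped by their titles. Here edgeR 4.0.16 in R 4.3.3 was run on the 9 inputs with filterByExpr (minimum count 10, minimum total 15), TMM factors, a group-means model and the two-sided quasi-likelihood test, with Benjamini-Hochberg adjustment over all tested IDs and a threshold of 0.05. In every input, 99.86% or more of all counts fell on tested IDs. Standard errors came from the test statistic. RIP contrasts used 18 libraries. Log2 CPM used a prior count of 2. Library size limits precision, and read counts are not independent molecules, so intervals cover the modelled spread only.

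The replicate numbers were taken to pair the SBP2 inputs with and without selenite, since their same-number correlations of deviations were all over 0.1 (0.149 to 0.259). Flag vector inputs, also in the block fit, correlated with same-numbered inputs at 0.172 to 0.41 with selenite and at 0.0894 to 0.281 without, so 1 of those pairs lay under that limit. The fit over the 6 SBP2 inputs does not use them. The block is an alternative to the model without it. Chi-square per degree of freedom between replicates of a group was 4.71 to 16.8, where sampling noise alone gives about 1, so none was counted as a duplicate. The fits were run on simulated counts in which 200 IDs at 1 CPM or more changed by 0.6 on the log2 scale. Without replicate-number effects, 82.5% of these were called without a block and 83% with it, beside 9 and 8 false calls. With such effects at a set SD of 0.15, the fit without a block called 35%, with 0 false calls. The fit with the block then called 86%, with 10 false calls. For changes of 1 these shares were 89.5% and 93.5%. The simulated replicate-number effects had the form that the block assumes, so a gain from the block was built in. These shares therefore do not show how reliable the calls in the real libraries are.

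Named IDs are those called, then the largest changes called with the block, at most 2 each way. The gene lists set by symbol could not be applied, because no ID matched a symbol. The comparison, the lists and the naming rule were chosen with earlier results of these data known. Alternatives with DESeq2 1.42.0, limma 3.58.1, other scalings, other filters and left-out libraries are given in the closing section. Those that combine the block with another tool, scaling or filter were chosen after seeing the data.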

Additional observations from a re-analysis of the deposited data

How the results depend on the processing

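Without a block, 1 ID was higher and 0 lower, and both counts stayed there with limma voom, with each of the 3 other scalings, with the stricter low-count filter and without any 1 SBP2 input. Leaving out 1 input at a time gave 1 to 2 higher and 0 lower, with 2 higher without Flag vector input 3. The fit over 6 inputs gave 2 higher, and 18 libraries and DESeq2 gave 3 each, with 0 lower. Without a low-count filter there were 5 higher and 22 lower. With the replicate number as a block there were 5 higher and 32 lower over 9 inputs, and 8 and 167 over 6 inputs, which held the same 5 and the same 32 among them. With the block and 1 pair left out, 2 to 8 were higher and 0 to 152 lower. In combinations chosen after seeing the data, the block gave 5 higher throughout, with 33 lower by DESeq2, 44 by limma voom, 47 with DESeq2 size factors, 42 with upper-quartile factors, 5 with library size alone and 38 with the stricter filter, except that no low-count filter gave 13 higher and 249 lower. The causes were not tested. Direction was kept by all 4 named IDs in all 30 other settings. ENSG00000178980 passed in 30, ENSG00000197582 in 14, and ENSG00000270022 and ENSG00000113369 in 7 each, and DESeq2 with the block gave no adjusted p for these last. Depth limits the rarest IDs most, with a median standard error of 0.426 on the log2 scale below a mean log2 CPM of 0, against 0.0928 at 8 or more.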

Other observations

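Some IDs had counts in 1 of the SBP2 groups alone. Of 58676 IDs, 94 had a count in all 3 selenite inputs and 0 in all 3 SBP2 inputs without selenite, and 78 showed the opposite pattern. Their counts summed to at most 17 and 14 over 3 libraries, so they were near the detection limit, and none is named.

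Over all tested IDs, all 3 same-number differences were above 0 for 2477 (14.9%) and below 0 for 2960 (17.8%).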
